A study of Mus musculus with 7 samples.

Results

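Broad accessible domains were stretches of the genome of at least 5000 bp that the deposited peak lists of RAW264.7 cells covered in every library. They were selected by measured values: peaks that overlapped or touched were merged across the 7 lists, and a merged region was a domain where it reached 5000 bp and held a peak in all 7 libraries. This gave 759 domains among 43170 regions with a peak in every library (called shared regions here) and 344401 merged regions in all. Another 11 regions of at least 5000 bp lacked a peak in some library and were left out. Length and presence in all 7 libraries are therefore properties of the choice and not results. The edges of a domain were those of the union of all 7 lists. High covered shares and long peaks in a library that set many edges are thus also in part products of the choice.

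The libraries were ATAC-seq profiles, in which a transposase cuts and tags accessible DNA, of RAW264.7, a mouse line of the monocyte and macrophage lineage that forms osteoclasts when given RANKL. Untreated cells (2 libraries, with no time in the labels), cells given RANKL at 50 ng/ml (2), cells given RANKL at 50 ng/ml with the BET inhibitor I-BET at 500 nM (2) and cells given I-BET at 500 nM alone (1, labelled replicate 2) were compared, the treated cells after 4 h. All groups are the same cultured line, whose source label reads bone marrow, so they model osteoclast precursors only as far as a cell line does. The labels do not say whether replicates came from separate cultures, so any p-value measures the spread between these libraries, which may be technical.

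Open chromatin usually forms narrow sites, at gene starts and at enhancers, where transcription factors displace nucleosomes. Long open stretches arise where many such sites lie side by side, and they are known for marking highly transcribed genes and genes that define a cell type. BET proteins such as Brd2 read acetylated histones, which are dense at such places, and I-BET occupies their acetyl-lysine pockets. RANKL signals through NF-kB and AP-1 factors and, later, through Nfatc1, the factor that drives osteoclast genes.

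Most domains with a listed gene start had their most strongly called peak summit close to it, so promoter sequence is shown for 6 genes that carry the account below. Each run holds the 250 bases before a RefSeq gene start (GRCm38.p6, which has the mm10 chromosomes), 5' to 3' on the gene's strand, and each window lay whole inside called peaks in all 7 libraries. Capitals mark matches, on either strand, to the GC box GGGCGG, the E-box of Myc CACGTG, the ETS core with flank CGGAAG and the TATA box TATAAA. Fos (chr12:85473640-85473889, + strand) and Junb (chr8:84978749-84978998, - strand) encode subunits of AP-1, Cebpb (chr2:167688665-167688914, + strand) a myeloid transcription factor and Dusp2 (chr2:127335909-127336158, + strand) a phosphatase of MAP kinases. Tnf (chr17:35202008-35202257, - strand) encodes an inflammatory cytokine and Ctsd (chr7:142387828-142388077, - strand) a lysosomal protease.
Fos: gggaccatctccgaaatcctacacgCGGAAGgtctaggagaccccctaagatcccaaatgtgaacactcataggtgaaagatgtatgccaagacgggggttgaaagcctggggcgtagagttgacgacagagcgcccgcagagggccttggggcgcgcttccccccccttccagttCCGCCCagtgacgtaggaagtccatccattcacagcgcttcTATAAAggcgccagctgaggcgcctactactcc
Junb: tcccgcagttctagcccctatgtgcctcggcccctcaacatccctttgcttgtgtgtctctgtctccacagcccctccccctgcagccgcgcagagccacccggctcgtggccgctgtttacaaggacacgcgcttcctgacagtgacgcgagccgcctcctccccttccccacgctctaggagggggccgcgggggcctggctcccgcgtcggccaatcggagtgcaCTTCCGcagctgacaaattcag
Cebpb: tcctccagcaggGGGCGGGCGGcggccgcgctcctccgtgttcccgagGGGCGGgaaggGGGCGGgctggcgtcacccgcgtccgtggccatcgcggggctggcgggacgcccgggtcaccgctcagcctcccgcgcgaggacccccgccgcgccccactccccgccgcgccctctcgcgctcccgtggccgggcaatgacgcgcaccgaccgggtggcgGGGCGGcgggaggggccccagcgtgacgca
Dusp2: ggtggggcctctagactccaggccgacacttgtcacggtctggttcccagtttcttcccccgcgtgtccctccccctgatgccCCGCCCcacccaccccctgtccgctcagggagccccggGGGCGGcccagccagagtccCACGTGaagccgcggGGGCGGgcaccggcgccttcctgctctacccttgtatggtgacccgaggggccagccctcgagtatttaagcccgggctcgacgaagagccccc
Tnf: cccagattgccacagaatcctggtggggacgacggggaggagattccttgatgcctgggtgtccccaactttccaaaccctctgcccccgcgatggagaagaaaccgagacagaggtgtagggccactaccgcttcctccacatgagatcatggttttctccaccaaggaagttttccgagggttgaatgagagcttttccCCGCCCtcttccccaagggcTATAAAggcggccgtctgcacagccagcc
Ctsd: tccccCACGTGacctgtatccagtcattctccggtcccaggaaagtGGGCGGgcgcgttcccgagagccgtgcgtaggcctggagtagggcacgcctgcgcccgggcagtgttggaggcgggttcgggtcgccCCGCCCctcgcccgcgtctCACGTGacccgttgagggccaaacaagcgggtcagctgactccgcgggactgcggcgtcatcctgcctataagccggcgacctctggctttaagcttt

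The 6 windows differ in composition. The Cebpb window held 81.6% G and C with 41 CpG and 5 GC boxes, whereas those of Fos (58.4%, 15 CpG) and Tnf (57.6%, 10 CpG) each held 1 GC box and a TATA box close to the start. Over the 710 windows of 534 genes whose start lay in a domain, the median G and C content was 62.4% with 16 CpG. The 6012 windows in shared regions of 2000 to under 5000 bp had the same median content with 18.5 CpG, and the 10333 windows outside shared regions had 49.2% with 3 CpG. A GC box stood in 64.9% of the windows in domains, 66.7% of those in shared regions of 2000 to under 5000 bp and 42.6% of all 21263 windows. The ETS core with flank stood in 20.4%, 28.4% and 17.1%, the E-box of Myc in 9.44%, 8.93% and 6.63% and the TATA box in 6.06%, 5.06% and 11.6%, in the same order. The AP-1 site TGANTCA was found in 3.24%, 3.68% and 6.13%, again in that order. For the CRE TGACGTCA the shares were 2.54%, 2.94% and 1.92%, and for the PU.1 site GAGGAAGT 3.1%, 2.31% and 2.23%. These are counts of letters in a window and say nothing of binding.

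Domains also held 39 of the 1005 microRNA hairpins of the RefSeq table (3.88%), in 32 domains. The mature forms from the hairpins best known in myeloid cells are shown, 5' to 3', with the seed (bases 2 to 8) in capitals. They come from the cluster of Mir23a, Mir27a and Mir24-2 in the domain at Zswim4 (hairpins at chr8:84208518-84208592, chr8:84208672-84208758 and chr8:84208815-84208921, all + strand), from Mir21a in the domain at Vmp1 (chr11:86584067-86584158, - strand) and from Mir142 in the domain at Tspoap1 (chr11:87756864-87756927, + strand). Mir132 and Mir212 lay in the domain at Hic1 (chr11:75173682-75173747 and chr11:75173388-75173478, + strand), and Mir22 in a domain near Wdr81 (chr11:75463716-75463810, + strand).
mmu-miR-23a-3p: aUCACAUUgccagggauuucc
mmu-miR-27a-3p: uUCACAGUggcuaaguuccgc
mmu-miR-24-3p: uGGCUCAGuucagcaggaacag
mmu-miR-21a-5p: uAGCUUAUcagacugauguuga
mmu-miR-142a-5p: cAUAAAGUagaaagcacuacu
mmu-miR-142a-3p: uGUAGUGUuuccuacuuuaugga
mmu-miR-132-3p: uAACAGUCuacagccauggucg
mmu-miR-212-3p: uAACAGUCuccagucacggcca
mmu-miR-22-3p: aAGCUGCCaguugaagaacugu

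Among these, miR-132-3p and miR-212-3p share 1 seed and the others each have their own. Of the hairpins named, those of Mir142, Mir132 and Mir212 lay under a called peak in 7 libraries, those of Mir23a and Mir24-2 in 5, those of Mir27a and Mir21a in 3 and that of Mir22 in 1. The domain of Mir142 (chr11:87753857-87764558, 10702 bp) was covered over 39.1% and 92.3% of its length in untreated replicates 1 and 2, 60.6% and 76.7% with RANKL, 77.4% and 98.0% with RANKL and I-BET, and 71.3% with I-BET. At Vmp1 (chr11:86575368-86584733) the shares were 29.1%, 79.5%, 53.6%, 88.2%, 54.1%, 96.3% and 70.7% in the same order of libraries. In both domains the untreated replicate 1 was lowest and the second RANKL+I-BET replicate highest, and the untreated and RANKL groups overlapped.

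Libraries differed in how much they called. The lists held 117175 to 166369 peaks, and the constant background pileup that the deposited folds imply, used here in place of the read depth, ran from 1.11 in the I-BET library to 4.12 in RANKL replicate 1, and was 13.8 in RANKL+I-BET replicate 2, which stands apart. That library called 119 Mb in all against 58.4 to 82.4 Mb in the others. Of the bases of domains called in 1 library alone, 75.1% came from it. Without it, merging the other 6 lists gave 430 domains, which overlapped 422 of the 759 (55.6%), with 19 of at least 10000 bp in place of 64. Against markers of the labelled line, all 10 macrophage markers had a shared region over their body and 4 had a domain (Csf1r, Cd68, Cd14 and Spi1), whereas 6 of 8 osteoclast markers had a shared region and 0 a domain. A shared region lay over 3 of 6 B cell markers, 3 of 6 T cell markers, 3 of 7 for the fibroblast and osteoblast lineage, and 2 of 7 for granulocytic and erythroid cells, and a domain over 0 of them. Domains overlapped 3.81% of all coding genes, so a count of 0 in lists this short is near that share. The share of all coding genes with a shared region over their body is not given here, so those counts are a description.

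Domains made up 1.76% of shared regions and 7.53% of their bases, 5.31 Mb in all. Their median length was 6224 bp (lower quartile 5476, upper quartile 7356), against 1312 bp for all shared regions. Most, 582, were under 7500 bp, 113 were of 7500 to under 10000 bp and 64 were longer. Just inside the threshold were domains of 5006 bp at Zeb2, 5010 bp at Dock8 and 5011 bp near Ski. Just outside it were shared regions 1 bp too short at B4galt1 and of 4996 bp at Ltbp4, whose covered shares (52.4% to 100%) lay in the range of those inside (39.0% to 100%).

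Most domains held a gene boundary. A start or end of a protein-coding gene lay inside 508 of the 759 (66.9%, exact Clopper-Pearson 95% interval 63.5% to 70.3%), against 50.9% (49.9% to 51.9%) of shared regions of 2000 to under 5000 bp and 13.0% (12.6% to 13.4%) of shorter ones. The share was 79.7% (67.8% to 88.7%) in the 64 domains of at least 10000 bp, and a longer region has more room for a boundary. Per 10 kb, domains held 1.34 listed starts, shared regions of 2000 to under 5000 bp 2.09 and shorter ones 1.16, so starts were less dense in domains than in the class next to them. It was 70.2% in the 430 domains rebuilt without RANKL+I-BET replicate 2, a check added after the data had been seen. A further 137 domains (18.1%) lay inside a gene with no listed start, and 68 (8.96%) overlapped no coding gene. Intervals cover counting error only.

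**Figure D1:**
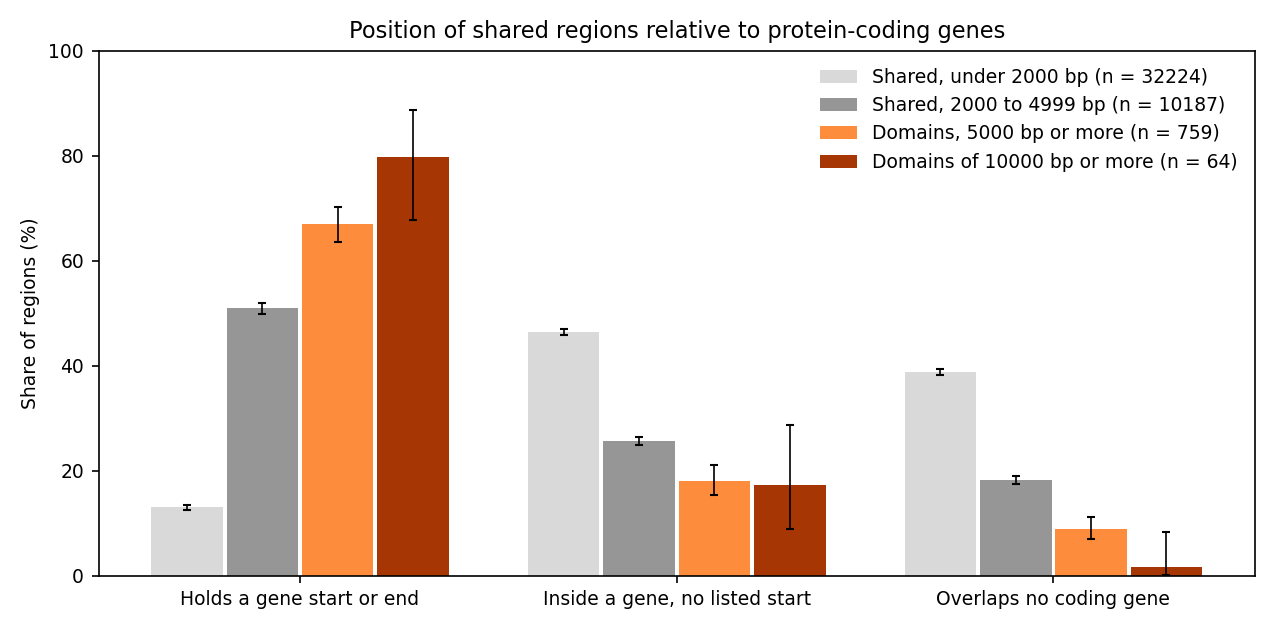
Shares of regions (y axis, %) that hold a gene start or end, lie inside a gene with no listed start, or overlap no coding gene, for shared regions under 2000 bp, shared regions of 2000 to under 5000 bp, domains, and domains of at least 10000 bp; bars are shares and error bars exact 95% intervals. Gene boundaries are in 66.9% of domains and 13.0% of the shortest class, and regions outside coding genes fall from 38.8% to 8.96%.

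Around a start, domains reached further downstream, in the direction of transcription, than upstream. Downstream reach was taken to the domain edge and was not stopped at the end of the gene. In 272 domains with 1 listed start, the median reach was 4195.5 bp downstream and 2099.5 bp upstream, and 204 (75%) were longer on the downstream side. At the start itself 96.9% to 99.6% of these domains were called, depending on the library. At 3 kb downstream the share called was 37.2% and 57.3% in untreated replicates 1 and 2, 45.8% and 58.5% with RANKL, 44.8% and 73.4% with RANKL and I-BET, and 47.8% with I-BET. At 3 kb upstream it was 16.4% to 27.6%. The excess on the downstream side was present in all 7 libraries. It was the replicates, not the treatments, that differed most at 3 kb downstream: each second replicate was above the first replicate of its group, and the untreated and RANKL groups overlapped.

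**Figure D2:**
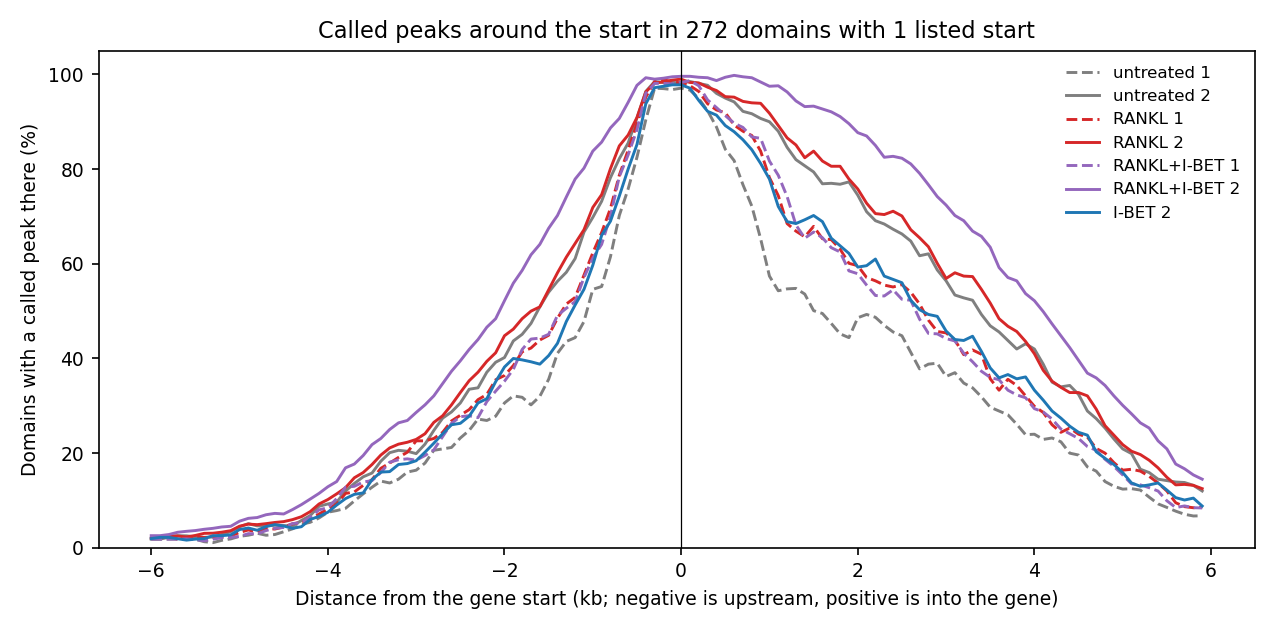
Share of the 272 domains with 1 listed start that had a called peak (y axis, %) at each distance from the start (x axis, kb), 1 line per library, dashed for replicate 1. Positive distances are downstream of the start, which the axis label calls into the gene, and can pass the gene's end. All lines are at 96.9% or more at the start and fall more slowly downstream. Untreated replicate 1 is lowest and RANKL+I-BET replicate 2 highest on both sides at 3 kb.

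Each line of the deposited lists has 1 summit, so summits and peaks per domain are the same number. In 376 domains (49.5%) the summit with the largest -log10 p lay within 250 bp of the median position in all 7 libraries, and in another 116 (15.3%) in 6 of them. In the 451 domains with a listed start, this summit was within 500 bp of a start in 74.3% and 63.0% of untreated replicates 1 and 2, 69.2% and 61.6% with RANKL, 70.7% and 63.0% with RANKL and I-BET, and 62.7% with I-BET. By rank within its own list, the strongest summit of a domain had a median percentile of 95.2 to 97.2 over the libraries, against 80.1 to 86.1 for the other shared regions. A longer region holds more peaks to choose the strongest from, so the ranks are a description.

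Bases called in all 7 libraries, the core of a domain, made up 44.7% of the bases of domains and 42.8% of those of all shared regions. The median domain had a core of 46.6% in 3 separate segments, with a longest segment of 1627 bp. A core of at least 5000 bp in 1 piece was present in 6 domains, and in the same number every library had a peak of its own that long. These domains lay near Wdr81, at Plec (plectin, a cytoskeletal linker), at Brd2 with H2-DMa, at Mef2d (a MADS-box factor), at Pcdh7 and at Prdx2 with Junb. The one near Wdr81 lay over Mir22hg, and the Mir22 hairpin in it was under a called peak in only 1 library. The longest core, 7058 bp, was at Plec. By contrast, 152 domains were reached by joining peaks that were each under 5000 bp, 344 had such a long peak in RANKL+I-BET replicate 2 alone, and 9 had no base called in all 7 libraries.

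Domains overlapped 833 of 21887 protein-coding genes (3.81%). Genes of the AP-1 and early response list, some of which are switched on within minutes of a signal, were overlapped most often: 16 of 34 (47.1%), namely Fos, Fosl2, Jun, Junb, Jund, Atf3, Mafk, Ier2, Ier3, Klf4, Klf6, Dusp2, Dusp4, Zfp36, Zfp36l1 and Sgk1. Without RANKL+I-BET replicate 2 the count was 14 of 34, beside 2.19% of all genes. Many of these genes are short, and a domain can span them whole.

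The Junb domain (chr8:84973756-84987044, 13289 bp, also over Prdx2) had 80.9% of its bases called in all 7 libraries. Its share was 87.2% and 93.6% in untreated replicates 1 and 2, 85.7% and 99.0% with RANKL, 87.9% and 100% with RANKL and I-BET, and 92.3% with I-BET. All libraries were high and the groups overlapped. At Jund (chr8:70694745-70704520, 9776 bp) the shares were 68.2% and 63.6%, 86.9% and 64.7%, 87.9% and 79.5%, and 58.5%. Here replicate 1 was above replicate 2 in each of the 3 groups, which was the case in 2 of the 759 domains (0.264%, against 2.08% of all shared regions), the other being at Emp1. At Fos (chr12:85471609-85479927, 8319 bp) they were 46.5% and 82.5%, 78.2% and 90.6%, 67.1% and 98.5%, and 54.9%, with the low values in untreated replicate 1 and the I-BET library. Atf3, a stress-induced AP-1 partner, had 73.8% and 85.3% in untreated cells and 95.1% and 75.7% with RANKL, so these groups overlapped as well.

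Genes of 2 other lists had domains at a similar rate. In the actin and adhesion list 8 of 20 had one: Actb, Actg1, Lcp1, Coro1a, Pfn1, Tln1, Itga5 and Pxn. In the chromatin regulator list it was also 8 of 20, among them Kdm6b, Hdac5, Dnmt3a, Tet3, Kmt2d, Arid1a and Bcor. Each count was 5 without RANKL+I-BET replicate 2. Actb, the cytoplasmic actin (chr5:142903729-142910756), was covered over 76.6% to 100% across the 7 libraries, with 1 to 3 peaks in each. Kdm6b, a demethylase of histone H3 lysine 27 (chr11:69407863-69412985), had 1 peak in every library and a share of 83.6% to 99.6%.

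Of the myeloid regulators 9 of 28 had a domain (4 of 28 without RANKL+I-BET replicate 2): Spi1, Cebpb, Irf5, Runx1, Zeb2, Etv3, Fli1, Bcl6 and Id2. Spi1 encodes PU.1, the factor that specifies macrophages, and its domain (chr2:91080220-91088759, 8540 bp) was covered over 64.5% and 90.9% in untreated replicates 1 and 2, 88.7% and 94.8% with RANKL, 70.6% and 100% with RANKL and I-BET, and 90.6% with I-BET. The domain of Cebpb (chr2:167686155-167694677, 8523 bp) gave 53.5% and 80.9%, 66.2% and 88.4%, 67.6% and 100%, and 50.6%. Both were covered least in a library of untreated or I-BET cells, yet the untreated and RANKL ranges overlapped in each. Among surface and lysosomal genes 6 of 28 had a domain (4 of 28 without that library): Cd68, Cd14, Tlr2, Ctsb, Ctsd and Cd9. The longest was at Ctsd, 16361 bp, covered over 66.9% to 98.7%.

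Smaller shares were found for the other lists. The cytokine list had 3 of 24 (Tnf, Lif and Vegfa), the NF-kB list 3 of 23 (Nfkbie, Nfkbid and Map3k14), the Myc and ribosome biogenesis list 4 of 20 (Myc, Mxi1, Mnt and Ncl) and the BET and elongation list 2 of 18 (Brd2 and Aff1). The interferon list had 1 of 22, Socs3. Without RANKL+I-BET replicate 2 the counts were 1 of 24 for cytokines (Vegfa), 2 of 23 for NF-kB, 3 of 20 for Myc, 1 of 18 for BET and elongation (Brd2) and 0 of 22 for interferon. Brd2, a target of I-BET, lay in a domain (chr17:34116604-34124372) with shares of 80.9% and 96.5% in untreated replicates 1 and 2, 89.4% and 95.6% with RANKL, 92.4% and 98.8% with RANKL and I-BET, and 91.0% with I-BET. The domain of Myc (chr15:61983067-61988519) had 72.4% and 90.5%, 88.7% and 94.9%, 85.9% and 100%, and 82.5%. Both stayed at or above 72.4% in every library. Lists and members were known from earlier work on these files, so the counts describe and test nothing.

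**Figure D3:**
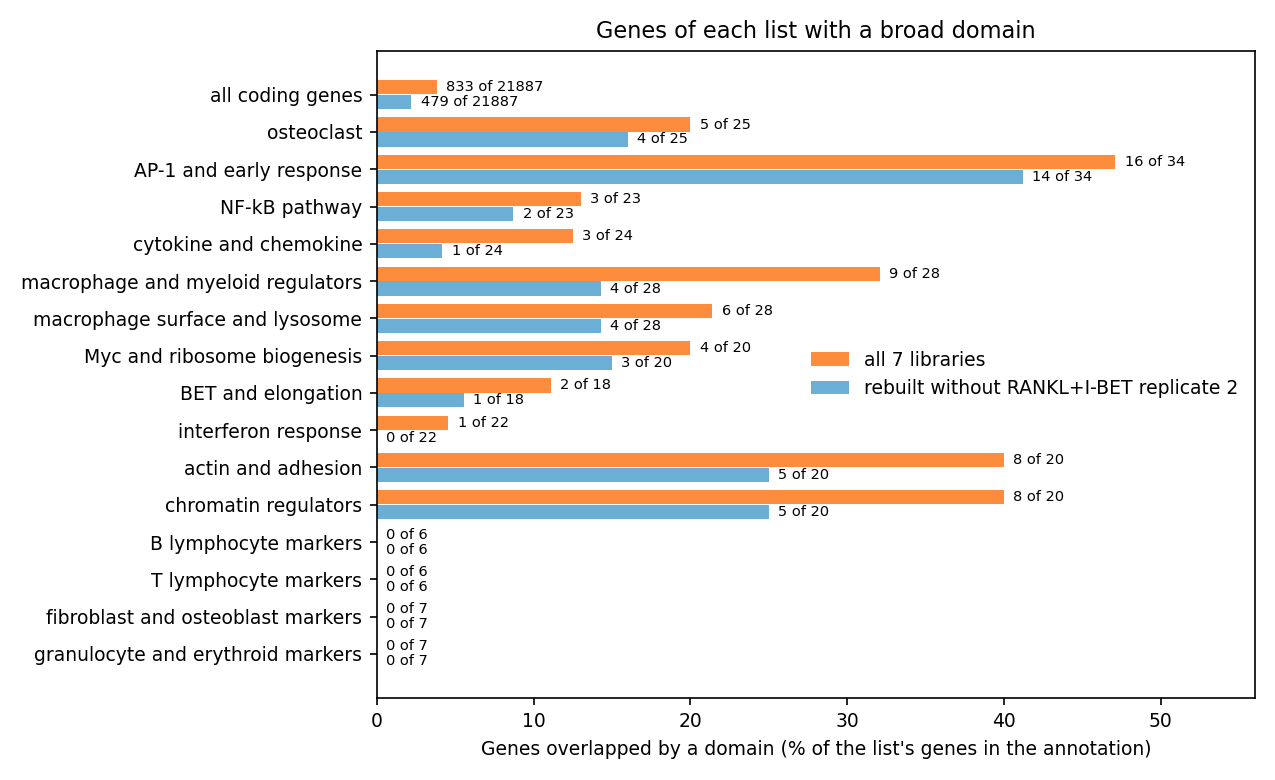
Share of the genes of each list (x axis, %) that a domain overlaps, with the counts beside the bars, for domains from all 7 libraries (orange) and rebuilt without RANKL+I-BET replicate 2 (blue). The AP-1 and early response list has 16 of 34 and 14 of 34, all coding genes have 3.81% and 2.19%, and the 4 marker lists of other cell types have 0.

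Several genes carried more than 1 domain: 70 had at least 2 and 12 at least 3. Ank, a transporter that controls extracellular pyrophosphate, and Nfatc1 had 7 each, over 85.5 kb and 71.8 kb. Lmna (nuclear lamins A and C) had 5 and Tns3 (a focal adhesion protein) 4, and Plec, Csf1r, Itga5, Cyth4, Cspg4, Gse1, Zfp710 and Nectin1 had 3. Without RANKL+I-BET replicate 2 the genes with at least 3 were Csf1r, Cyth4, Gse1, Lmna and Nfatc1. In all, 185 domains (24.4%) lay within 20 kb of another. By chromosome the number per 1000 shared regions was highest on chromosome 15 (28.5), 7 (27.6) and 11 (27.4), and it was 4.31 on X, with 3 domains, and 0 on Y, which has 7 shared regions.

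The osteoclast list had 5 of 25 genes with a domain (Nfatc1, Csf1r, Jdp2, Tcirg1 and Tyrobp), and 4 of 25 without RANKL+I-BET replicate 2. Csf1r is the receptor for M-CSF, on which osteoclast precursors depend. Its longest domain (chr18:61098113-61116007, 17895 bp) was covered over 30.7% and 86.9% in untreated replicates 1 and 2, 50.5% and 86.7% with RANKL, 49.2% and 100% with RANKL and I-BET, and 74.7% with I-BET. The longest of Nfatc1 (chr18:80695695-80710878, 15184 bp) gave 30.9% and 89.4%, 51.5% and 92.9%, 42.5% and 99.2%, and 43.6%. In both, replicate 2 was far above replicate 1 in every group, and the untreated and RANKL groups overlapped. Jdp2, an AP-1 family member with a part in osteoclast formation, had 29.4% and 56.5%, 30.9% and 79.9%, 37.5% and 98.7%, and 50.1% over 13287 bp (chr12:85597609-85610895).

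Between replicates the gaps were wide at these multi-domain genes. The domain of Ank at chr15:27485231-27498928 was covered over 3.8% and 61.7% in untreated replicates 1 and 2, 6.32% and 84.5% with RANKL, 3.85% and 99.3% with RANKL and I-BET, and 16.3% with I-BET, and 0% of it was called in all 7 libraries. The smallest of its 3 gaps between replicates, 57.9 points, was the largest among the domains, and after it came domains at Rack1, Ank, Nfatc1, Rps9 and Tns3, at 46.2 points or more. Replicate 2 had the higher share in all 3 groups in 643 domains (84.7%, against 52.3% of all shared regions), with a median gap of 22.0 points in untreated cells, 13.3 with RANKL and 27.5 with RANKL and I-BET. Background pileup did not follow this order in untreated and RANKL cells, at 2.55 and 1.81, and 4.12 and 2.04, and was 3.92 and 13.8 with RANKL and I-BET. The part of depth in these gaps was not tested.

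The longest domain, 45108 bp over Mroh2a and Hjurp (a chaperone of centromeric histone; chr1:88225316-88270423), went against that order in untreated and RANKL cells. It was covered over 95.4% and 78.8% in untreated replicates 1 and 2, 99.5% and 79.2% with RANKL, 97.4% and 99.5% with RANKL and I-BET, and 75.5% with I-BET. The number of separate peaks was 11 and 27, 2 and 28, 8 and 1, and 36. So 1 peak spanned nearly all of it in RANKL+I-BET replicate 2, and the untreated, RANKL and I-BET libraries numbered 2 broke it into 27 to 36. The untreated and RANKL groups overlapped, and both RANKL+I-BET shares were above both untreated ones. Neither a genome sequence nor a list of artefact-prone regions was at hand. Repeats and copy number were therefore not checked in this domain or in those of Ank. The next longest lay at Plec (24998 bp), at Frmd8 with the long noncoding RNA Neat1 (24843 bp) and at Slco4a1, a transporter (23049 bp).

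By treatment, the covered share of domains differed less between groups than between replicates of a group. The median share over the 759 domains was 58.1% and 82.9% in untreated replicates 1 and 2, 70.8% and 85.9% with RANKL, 69.9% and 98.2% with RANKL and I-BET, and 70.8% with I-BET. As group means these were 70.5% ± 17.5 (SD, n = 2) in untreated cells, 78.3% ± 10.7 (SD, n = 2) with RANKL and 84.1% ± 20 (SD, n = 2) with RANKL and I-BET. All 3 ranges overlapped. Untreated replicate 1 had the lowest share of all libraries in 502 domains and RANKL+I-BET replicate 2 the highest in 709. For any 1 value, 2 libraries against 2 cannot give an exact two-sided permutation p below 0.333. A lower share can mean fewer cells with the DNA open or less opening per cell, which cannot be told apart in bulk. It can also come from the depth or signal of a library, whose part was not tested.

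Peaks and summits per domain followed the same libraries. The mean number was 3.78 and 3.21 in untreated replicates 1 and 2, 3.7 and 3.08 with RANKL, 3.68 and 1.4 with RANKL and I-BET, and 4.2 with I-BET. A single peak was called in 34 and 118 domains of untreated cells, 36 and 144 with RANKL, 61 and 522 with RANKL and I-BET, and 33 with I-BET. Domains that held a peak of at least 5000 bp of the library's own numbered 23 and 163, 45 and 208, 53 and 595, and 37. Replicate 2 had fewer, longer peaks in every pair, most of all with RANKL and I-BET. That library set many domain edges, so its long peaks are in part a product of the choice.

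**Figure D4:**
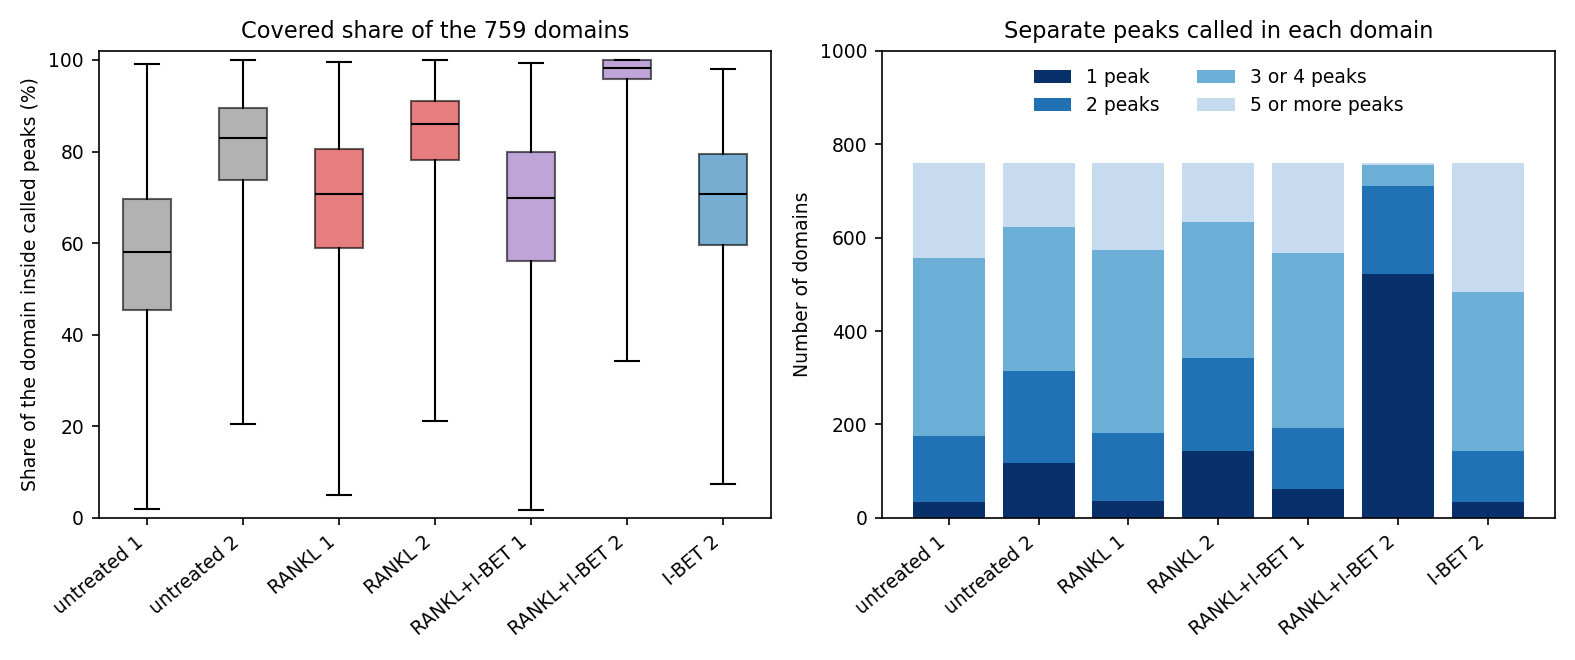
Left, share of each of the 759 domains inside called peaks (y axis, %) by library; boxes are quartiles, lines medians and whiskers the full range. Right, number of domains (y axis) by how many separate peaks each library called in them. Medians run from 58.1% in untreated replicate 1 to 98.2% in RANKL+I-BET replicate 2, where 522 domains were 1 peak.

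RANKL against untreated cells asked whether 4 h of the osteoclast signal changes how far domains are open. No domain was called: in the limma fit of log2 covered bases over all 43170 shared regions, each library centred on its median, 0 of 759 domains had more and 0 fewer covered bases at a Benjamini-Hochberg adjusted p under 0.05, and the share called among all shared regions was 0% in each direction. The smallest adjusted p was 0.986, and 11 domains and 1395 of all regions had an unadjusted p under 0.05. The median log2 difference over domains was -0.12, with 204 of 759 above 0, and -0.05 over all regions. Without centring it was 0.15, beside 0.22 over all regions, so the sign over domains depends on the scaling. Domains were below all regions in both, but not with a -log10 q of at least 5 (-0.0379 against -0.0452) or without RANKL replicate 1 (-0.0519 against -0.0582). With untreated replicate 2 left out, the lone untreated library being taken to vary like the other groups, limma called 7 domains and 1183 of all regions with more covered bases, and 0 domains and 83 of all regions with fewer.

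Among those 7 were domains at Zswim4, at Dmwd with Dmpk, near Rbpj (the effector of Notch signalling), at Lcp1 (the leukocyte actin bundler L-plastin), at Csf1r with Hmgxb3 and at Samd11. At Lcp1 (chr14:75185249-75192084) the shares were 6.52% and 69.0% in untreated replicates 1 and 2 and 57.3% and 77.2% with RANKL. In each of those named the untreated replicates lay further apart than the RANKL replicates, and with both untreated libraries limma called 0 of them. At Lcp1 the log2 difference without untreated replicate 2 was 2.81 (SE 0.35, adjusted p = 0.00325).

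By shares alone, both RANKL libraries were above both untreated libraries in 93 domains (12.3%), against 28.0% of all shared regions, and below both in 4 (0.527%), against 3.23%. Both shares of domains were under the background. Within pairs of equal number the share was higher with RANKL in 661 domains in replicate 1 (87.1%, median difference 10.7 points) and 508 in replicate 2 (66.9%, 2.86 points), against 83.0% and 58.4% of all shared regions. Background pileup moved with this in both, from 2.55 to 4.12 and from 1.81 to 2.04, and its part was not tested.

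Bases inside domains give the same picture at finer scale. Both RANKL libraries and neither untreated library called 93.9 kb (1.77% of domain bases, 2.75% over all shared regions), and the reverse held for 26.5 kb (0.5% and 0.579%). Both libraries numbered 2 and neither numbered 1 called 531 kb (10.0% and 5.74%). So the replicate number split more bases of domains than RANKL did.

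The most bases called with RANKL only were 1249 in the domain at Zfp385a and Itga5 (chr15:103336107-103346669). Itga5, the alpha chain of a fibronectin receptor, has its listed start in another domain (chr15:103363738-103372285). The domain with the 1249 bases held the listed start of Zfp385a. Its shares were 27.9% and 44.8% in untreated replicates 1 and 2, 65.9% and 68.8% with RANKL, 25.4% and 100% with RANKL and I-BET, and 37.3% with I-BET. The RANKL libraries were above the untreated ones without overlap, and the RANKL+I-BET replicates lay on either side of all others (difference 0.65 log2, SE 0.42, adjusted p = 0.986 by limma). Next came 969 bases in the domain at Chrm4, Mdk and Dgkz (chr2:91927144-91935975). There the untreated shares, 20.8% and 59.9%, overlapped the RANKL shares, 54.7% and 64.5%. At Lmna (chr3:88485731-88491865) 905 bases were gained, with shares of 29.9% and 60.6%, 75.7% and 77.2%, 60.4% and 100%, and 44.2%. At Zswim4 with its microRNA cluster (chr8:84205210-84213172), 874 bases were gained, with shares of 13.4% and 71.4%, 75.7% and 86.1%, 57.5% and 98.6%, and 66.2%. At Lmna and Zswim4 the untreated and RANKL ranges were separate, and the I-BET library lay within the untreated range. These domains were picked by bases called in both RANKL and neither untreated libraries. Separate ranges are thus in part a product of that pick.

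Among the domains with the smallest p for more bases were Uck2, a uridine kinase (chr1:167230856-167235975), and Ap5z1, a subunit of an adaptor complex of late endosomes (chr5:142474284-142479392). Uck2 had 24.5% and 50.5% in untreated replicates 1 and 2, 73.9% and 61.5% with RANKL, 62.4% and 91.3% with RANKL and I-BET, and 36.3% with I-BET (0.67 log2, SE 0.23). Ap5z1 had 30.6% and 60.8%, 76.0% and 84.8%, 62.7% and 95.6%, and 66.5% (0.62 log2, SE 0.20). In both all 4 libraries with RANKL were above both untreated ones. Smim4 with Nt5dc2 completed the 4 of smallest p, at 31.5% and 49.1% against 61.2% and 71.8%.

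For fewer bases the smallest p were at Rcor2, a corepressor (chr19:7263545-7269528, -0.54 log2, SE 0.18), Rad9a, a DNA damage checkpoint protein, Abr and Rnf166. At Rcor2 the shares were 70.5% and 91.9% in untreated replicates 1 and 2, 58.4% and 76.8% with RANKL, 64.1% and 85.7% with RANKL and I-BET, and 61.4% with I-BET, so each RANKL library was below the untreated library of its number while the groups overlapped. The most bases called in untreated cells only were 712 at Rara, the retinoic acid receptor alpha (chr11:98929118-98934802), with 56.2% and 78.6%, 50.3% and 66.2%, 51.3% and 94.7%, and 53.3%. The adjusted p was 0.986 for each of these by limma.

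The 13 domains at osteoclast genes had a median log2 difference of 0.21, with 11 above 0, beside -0.12 and 204 of 759 for all domains, and 10 of them belong to Nfatc1 and Csf1r. Without untreated replicate 1 the median was -0.23 with 1 above 0, and without RANKL replicate 2 it was -0.24 with 2 above 0, so either library decides the sign. It was 0.63 without untreated replicate 2, 0.57 without RANKL replicate 1, 0.08 with lists of equal length and 0.49 without centring. The 17 domains at AP-1 and early response genes had a median of -0.18 with 3 above 0, which was -0.03 without untreated replicate 1 and turned to 0.10 with 13 above 0 without centring. Domains of the other lists had medians from -0.29 (3 domains, cytokine) to -0.06 (10 domains, myeloid regulators) among lists with at least 3 domains.

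**Figure D5:**
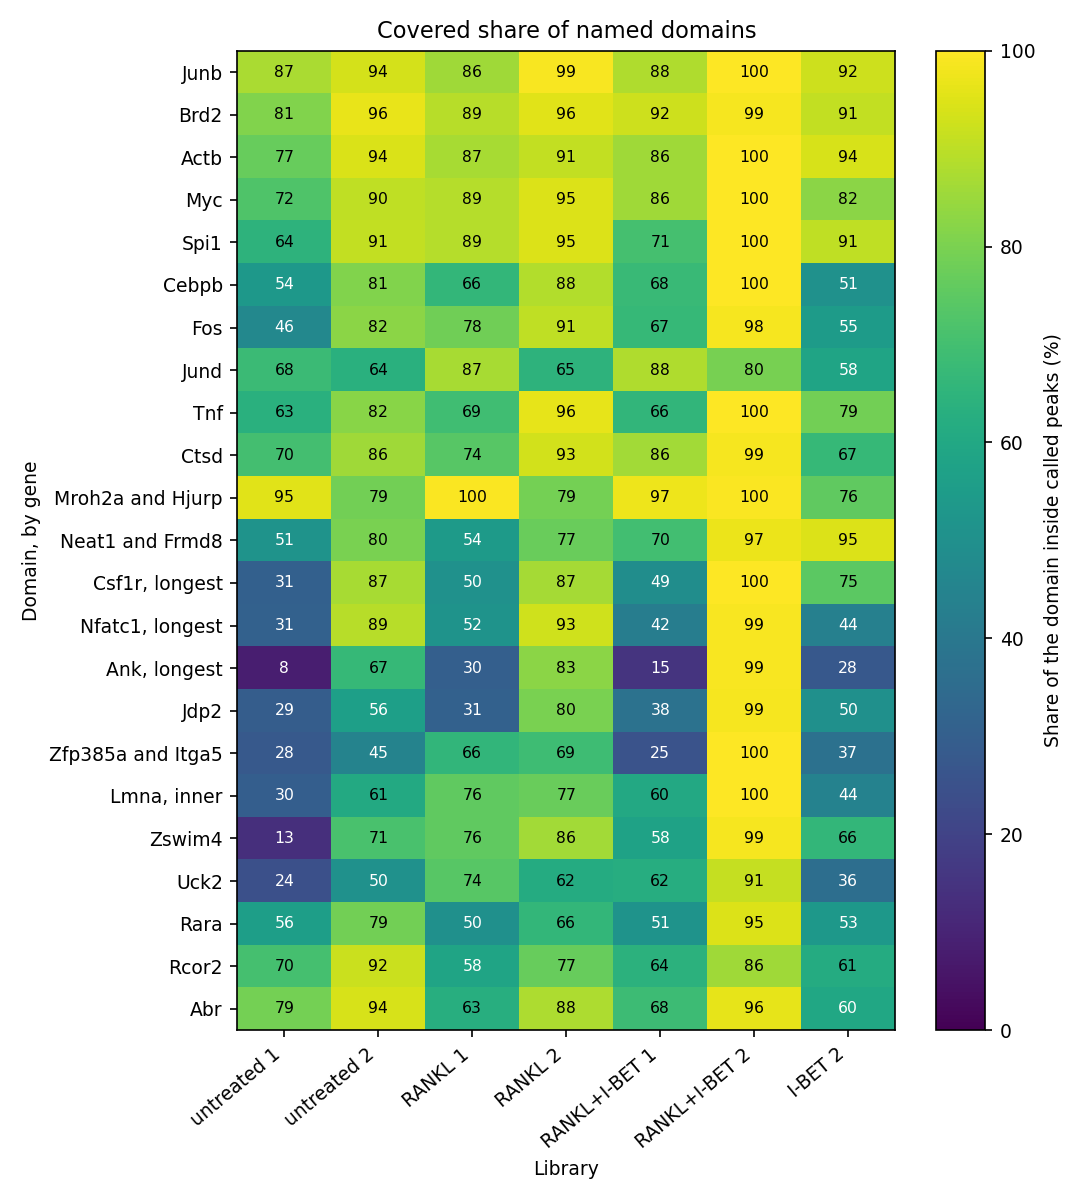
Covered share (colour and printed value, %) of 23 named domains (rows, by gene) in each library (columns). Junb, Brd2 and Actb are at 76.6% or more in all 7 libraries, Csf1r, Nfatc1 and Ank are low in replicate 1 of each group, and Mroh2a with Hjurp is higher in replicate 1 of untreated and RANKL cells.

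RANKL with I-BET against RANKL asked what BET inhibition changes on top of RANKL. Here too limma called 0 of 759 domains in either direction, with 0% of all shared regions called each way. The smallest adjusted p was 1.0, and 1 domain and 351 of all regions had an unadjusted p under 0.05. The median log2 difference was -0.03 over domains and -0.01 over all regions, and 0.07 and 0.09 without centring. Shares did not overlap and were higher with I-BET in 53 domains (6.98%), against 18.1% of all shared regions, and lower in 0 (0%), against 1.49%. Within pairs, the share was higher with I-BET in 321 domains in replicate 1 (42.3%, median difference -1.84 points; 41.0% of all shared regions) and in 735 in replicate 2 (96.8%, 11.5 points; 89.2%). In replicate 2 the background pileup was 2.04 and 13.8. RANKL+I-BET replicate 2 also set many domain edges, so the count of 735 follows in part from the choice of domains.

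Domains of smallest p for more bases with I-BET included those at Nelfcd with Ctsz, at Efna3 (an ephrin) and near Ski (a SMAD corepressor). At Efna3 (chr3:89314835-89323959) the shares were 50.5% and 59.3% in untreated replicates 1 and 2, 54.5% and 59.9% with RANKL, 68.8% and 95% with RANKL and I-BET, and 52.2% with I-BET alone. Both libraries with RANKL and I-BET were above all others. For fewer bases they were at Rhbdf2 (a carrier of the protease that sheds Tnf), Gsn (gelsolin, which severs actin), Lrrc75a with Mmgt2, and Tmbim6. At Rhbdf2 (chr11:116614632-116619804) the RANKL shares were 80.1% and 92.4% and the RANKL+I-BET shares 41.6% and 100%, which lie on either side.

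RANKL with I-BET against untreated cells shares its libraries with the 2 comparisons above. Limma called 0 of 759 domains each way, with 0% of all regions, a smallest adjusted p of 0.994, and 9 domains and 1060 of all regions at an unadjusted p under 0.05. The median log2 difference was -0.14 over domains and -0.05 over all regions, and 0.24 and 0.33 without centring. Shares were higher without overlap in 113 domains (14.9%, against 33.2% of all shared regions) and lower in 1 (0.132%, against 0.359%). Within pairs they were higher in 635 domains in replicate 1 (83.7%, median 9.33 points) and 744 in replicate 2 (98.0%, 14.7 points), against 80.3% and 91.9% of all shared regions. The count of 744 again rests on the library that set many domain edges, so it follows in part from the choice. Without untreated replicate 2, limma called 7 domains and 1062 of all regions with more covered bases, among the domains Zswim4, Dmwd with Dmpk, Lcp1, the one near Rbpj, Csf1r with Hmgxb3, and Acot13.

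I-BET alone had 1 library, so its values stand beside the others with no test. Its median share over domains, 70.8%, lay between those of untreated replicates 1 and 2, 58.1% and 82.9%. Its share was above that of untreated replicate 2, the higher of these, in 77 domains (10.1%), against 29.7% of all shared regions, with a median difference of -10.3 points. That difference therefore does not hold against both untreated libraries. In 31 domains (4.08%), against 11% of all shared regions, each I-BET library was above the library of the same number without it, in all 3 such pairs. The smallest of the 3 differences was largest at Neat1 with Frmd8 (chr19:5827215-5852057), a domain also among the 10 longest. Its shares were 51.4% and 80.0% in untreated replicates 1 and 2, 54.3% and 77% with RANKL, 69.7% and 97.2% with RANKL and I-BET, and 94.6% with I-BET, and the smallest difference was 14.6 points. Peaks there numbered 14 in untreated replicate 2 and 4 with I-BET, 10 and 4 in RANKL and RANKL+I-BET replicate 2, and 6 and 15 in replicate 1.

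Both domains over Malat1, the long noncoding RNA next to Neat1, were also among the 8 with the largest smallest difference. At chr19:5792692-5798345 the shares were 29.3% and 91.4% in untreated replicates 1 and 2, 56.1% and 90.1% with RANKL, 81.7% and 99.4% with RANKL and I-BET, and 97.9% with I-BET. At chr19:5798529-5805424 they were 35.2% and 83.1%, 49.7% and 88.7%, 66.1% and 99.7%, and 89.7%. The other 5 lay at Cited2, Cd9, Hk2, Atf4 with Rps19bp1, and Gys1 with Ftl1 and Bax. These domains were picked for this pattern after their values had been seen, so the differences are a description. The I-BET library had the lowest background pileup, 1.11, and untreated replicate 2 had 1.81.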

How the data were processed

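Deposited values. The authors deposited 1 narrowPeak list per library. The submitters' processing notes name MACS2, Bowtie2, cutadapt, FastQC, SAMtools, Picard and bedtools and the build mm10; roles and settings are not given in the sources used here. Each deposited line has a score, a fold (a ratio of pileup to background) and a -log10 p and -log10 q. The -log10 p and -log10 q served to rank or filter peaks within 1 list. The background pileup was derived from the most common pair of fold and -log10 p in each list, under a Poisson model. It was the only value from these columns compared by size between libraries. The part of depth in covered length was not tested. Read counts were not used.

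Computed values. Peaks were merged (Python 3.11.15, pandas 2.3.3). Covered bases of regions with a peak in all 7 libraries were tested with limma 3.58.1 (R 4.3.3; trend and robust options) on log2 covered bases, libraries centred on their medians, with 4 group means over 7 libraries and Benjamini-Hochberg adjustment over 43170 regions; the script was tested on simulated data. Genes came from a RefSeq table for GRCm38.p6 (21887 protein-coding genes without strand), and promoter windows covered 17492 of them. Of 290 list genes 288 matched. Members, lists and tests were chosen with earlier results of these data known.

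Named domains are the 10 longest, the 4 of smallest p in each direction of each comparison, the 5 with most bases called in both RANKL and neither untreated libraries and the 5 of the reverse kind, the 4 longest at genes of each list, and the 3 on each side of 5000 bp. Domains with microRNAs, with several per gene, with wide gaps between replicates, called without 1 library, or higher in each I-BET library were named after their values had been seen. Alternatives were no centring, an arcsine scale, a stricter -log10 q (5 or more), 117175 peaks in each list, regions of at least 1000 bp, a replicate block and leaving out each library. Some domains picked by these rules were left out of the text.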

Additional observations from a re-analysis of the deposited data

How the results depend on the processing

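Counts of called domains stayed at 0 under no centring, the arcsine scale, the stricter -log10 q, lists of equal length, regions of at least 1000 bp and the replicate block, in all 3 comparisons and both directions. Leaving out 1 library gave 0 to 7 domains with more covered bases for RANKL against untreated and 0 to 7 for RANKL with I-BET against untreated, both 7 only without untreated replicate 2. With the replicate block, 42, 7 and 45 domains had an unadjusted p under 0.05 (in the order RANKL v untreated, both agents v RANKL, both agents v untreated), against 11, 1 and 9 without it, and it changed no call. Differences between replicates correlated over domains at 0.664, 0.709 and 0.755 between groups, but nothing in the labels ties a number to a shared day or culture, so libraries were not taken as paired.

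The median log2 difference over domains was 0.151, 0.0741 and 0.241 without centring in the same order, and -0.0379 for RANKL against untreated and -0.0455 for RANKL+I-BET against untreated with a -log10 q of at least 5. The other 31 recomputed medians moved by less than the replicate SD of 0.0735, though that of RANKL+I-BET against RANKL ran from -0.0941 to 0.0372 with 1 library left out, above 0 without replicate 2 of either group. The number of domains was 1628 at 4000 bp or more, 64 at 10000 bp or more, 480 with at least 50% covered in each library, and 430 to 746 without 1 library, lowest without RANKL+I-BET replicate 2. It was 672 at the stricter -log10 q, 740 with equal lists and 904 with gaps up to 100 bp joined. The share with a gene boundary was 79.7% at 10000 bp or more. The causes were not tested. Read depth was not known, so a domain's edges cannot be separated from the depth of the call.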
